A study of Mus musculus with 8 samples.

Results

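The group described here holds 10 genes, 6 transcription factor genes of the trophoblast (*Cdx2*, *Elf5*, *Gata3*, *Tfap2c*, *Esx1* and *Hand1*) and 4 keratin genes of simple epithelia (*Krt7*, *Krt8*, *Krt18* and *Krt19*). They were chosen by name, and each gene was read from the RefSeq record with its highest mean count, out of 27052 records in the count table. RNA-seq was performed on 8 mouse induced pluripotent stem cell (iPSC) clones, 4 from triple knockout (TKO) fibroblasts that lack functional *Miwi*, *Mili* and *Miwi2* and 4 from control (Ctrl) fibroblasts. The methods describe the Ctrl cells as triple heterozygous littermates, and the legends as wild type or heterozygous. All clones carried an Oct4-GFP reporter on a mixed genetic background, came from embryonic fibroblasts (MEFs) transduced with retroviral OCT4, SOX2, KLF4 and c-MYC, and were below passage 10. Colonies were picked onto inactivated MEF feeder cells and kept in serum with LIF, so feeder RNA can be present in a library. Each library is 1 clone. Ctrl 33, Ctrl 34, TKO 35 and TKO 37 are numbered in the thirties and Ctrl 41, Ctrl 43, TKO 47 and TKO 48 in the forties. What these numbers denote is not given in the labels, and the 2 sets are called clone series below.

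The trophoblast is the outer lineage of the early embryo, from which the fetal part of the placenta forms. *Cdx2*, *Gata3* and *Tfap2c* act early in that lineage and *Elf5* maintains trophoblast stem cells, whereas *Hand1* is needed for trophoblast giant cells and *Esx1* acts in the placental labyrinth. Some of these genes are also used elsewhere, *Cdx2* in the posterior embryo and gut, *Hand1* in mesoderm and heart, and *Tfap2c* in germ cells and pluripotent cells. Keratin filaments are built from pairs of a type II chain (KRT7, KRT8) and a type I chain (KRT18, KRT19). KRT8 with KRT18 is the first keratin pair of the embryo, found in trophectoderm and other simple epithelia, including endoderm.

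Total counts ran from 8983203 in Ctrl 33 and 17216692 in Ctrl 34 to 45005422 in TKO 35 and 52457455 in TKO 37, with the forties libraries between 23992893 and 28830217. Depth therefore differed between the genotypes in the thirties series and hardly in the forties. Counts were divided by median-ratio size factors, which gives the normalized counts printed below. Of the targeted genes, *Miwi* (*Piwil1*) lay at 8.13 to 28.8 normalized counts in Ctrl and 2.41 to 4.53 in TKO, whereas *Mili* (*Piwil2*) lay at 758 to 1028 in Ctrl and 3845 to 10084 in TKO. The *Mili* allele deletes a few exons only and the count covers the whole record, so it does not check that deletion, and *Miwi2* was not analysed here. Of 12 pluripotency genes 11 passed the filter on low counts, and the list summed to 93406 to 112310 normalized counts per clone. The remaining gene, *Esrrb*, has 2 records and had 0 to 3 reads per library on the used record. *Pou5f1*, which encodes OCT4, lay at 15866 to 19185 normalized counts in TKO and 24310 to 28971 in Ctrl (log2 change -0.61 ± 0.10, SE, adjusted p = 0.038 by edgeR's quasi-likelihood test).

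Per kilobase of transcript, the mean level over the 8 clones was 1180 normalized counts for *Krt18* and 1026 for *Krt8*, followed by *Krt19* (280), *Esx1* (253), *Hand1* (167), *Krt7* (118), *Gata3* (59.2), *Tfap2c* (40.3), *Cdx2* (8.89) and *Elf5* (1.18). Not every step of that order held clone by clone. *Krt18* lay above *Krt8* in 5 of 8 clones, *Krt19* above *Esx1* in 4 and *Hand1* above *Krt7* in 3, so these neighbours did not separate. *Krt8* lay above *Krt19*, *Esx1* above *Hand1* and *Tfap2c* above *Cdx2* in all 8. *Elf5* had 29 reads in all, between 0 and 12 in a library, on its used record and none on a second record. Among symbols with several records, 28.4% of records had no read at all, so this low level is uncertain. *Elf5* did not pass the filter of at least 5 reads in at least 4 libraries, which the other 9 genes passed.

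The promoters of the keratin pair, and of *Esx1* and *Gata3* among the factors called below, are shown because the keratin genes are neighbours and these factors vary together. In the mm9 annotation *Krt8* (chromosome 15, 101827142 to 101834773, minus strand) and *Krt18* (chromosome 15, 101858647 to 101862457, plus strand) are 23.9 kb apart, whereas *Krt7* lies 566 kb from *Krt8*. *Esx1* is on chromosome X (133649936 to 133656622, minus strand), *Gata3* on chromosome 2 (9778705 to 9811661, minus strand) and *Hand1* on chromosome 11 (57642207 to 57646320, minus strand). The sequences below are the 250 bases before the annotated start, read 5′ to 3′ on the gene's strand from RefSeq on GRCm38.p6, for which 7 of the 10 genes have an entry, *Hand1*, *Tfap2c* and *Krt19* being the others.
Krt8, chr15:102004343-102004592, minus strand: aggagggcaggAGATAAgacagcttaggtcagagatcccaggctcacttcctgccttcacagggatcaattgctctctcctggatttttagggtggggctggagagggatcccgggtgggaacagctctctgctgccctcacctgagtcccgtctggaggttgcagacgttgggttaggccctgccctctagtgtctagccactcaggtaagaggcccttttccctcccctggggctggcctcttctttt
Krt18, chr15:102027966-102028215, plus strand: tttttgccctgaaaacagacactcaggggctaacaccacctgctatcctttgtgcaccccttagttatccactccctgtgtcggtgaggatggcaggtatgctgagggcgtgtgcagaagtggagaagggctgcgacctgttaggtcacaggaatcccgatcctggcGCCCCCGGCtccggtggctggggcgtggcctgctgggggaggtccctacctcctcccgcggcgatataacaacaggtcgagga
Esx1, chrX:137120327-137120576, minus strand: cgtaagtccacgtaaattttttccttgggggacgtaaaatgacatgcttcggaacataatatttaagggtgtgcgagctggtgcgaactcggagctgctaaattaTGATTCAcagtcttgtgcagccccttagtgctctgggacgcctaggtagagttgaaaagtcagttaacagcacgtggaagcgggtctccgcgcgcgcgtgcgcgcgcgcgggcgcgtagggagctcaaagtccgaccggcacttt
Gata3, chr2:9878601-9878850, minus strand: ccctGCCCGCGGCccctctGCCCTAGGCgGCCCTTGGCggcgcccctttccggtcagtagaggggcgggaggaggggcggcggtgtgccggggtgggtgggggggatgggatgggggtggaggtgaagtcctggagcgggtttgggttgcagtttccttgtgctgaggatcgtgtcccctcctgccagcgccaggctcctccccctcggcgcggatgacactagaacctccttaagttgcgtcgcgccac
Capitals mark matches, on either strand, to GCCNNNGGC (a TFAP2 motif, in *Krt18* and 3 times in *Gata3*), AGATAA (read by factors of the GATA family, in *Krt8*) and TGANTCA (an AP-1 motif, in *Esx1*). Of 32851 promoters of this length, 13.7% held the TFAP2 motif, 9.99% the GATA motif and 6.75% the AP-1 motif. TTTATG (a CDX motif, 10.8% of promoters), GGAATG (a TEAD motif, 12.6%) and TATAAA (12.4%) were searched as well and found in none of the 4 sequences. CANNTG (the E-box, 66.2%) was searched but is not marked. A match is only a run of letters, and no binding was measured.

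To determine whether loss of the PIWI proteins was accompanied by a change in these genes, the 4 TKO clones were compared with the 4 Ctrl clones. None of the 9 measured genes passed edgeR's quasi-likelihood test at an adjusted p of 0.05, 0 had an unadjusted p below 0.05 (14.8% of all records did), and DESeq2 and limma-voom also called 0, against a background of 0.24% of 16235 records. No gene separated the genotypes completely, which 8.33% of all records did. The 5 measured factors all had a higher fitted mean in TKO, from 0.01 ± 0.22 (log2, SE) for *Tfap2c* to 1.64 ± 0.92 for *Hand1*. The 4 keratins all had a lower one, from -0.18 ± 0.53 for *Krt18* to -0.84 ± 0.61 for *Krt8*, although with limma-voom *Krt18* (0.073) and *Krt19* (0.035) lay above 0. The direction of *Tfap2c* also turned (-0.020) when the counts of its 2 records were summed. With such errors, neither direction stood out from the spread between clones.

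**Figure D1:**
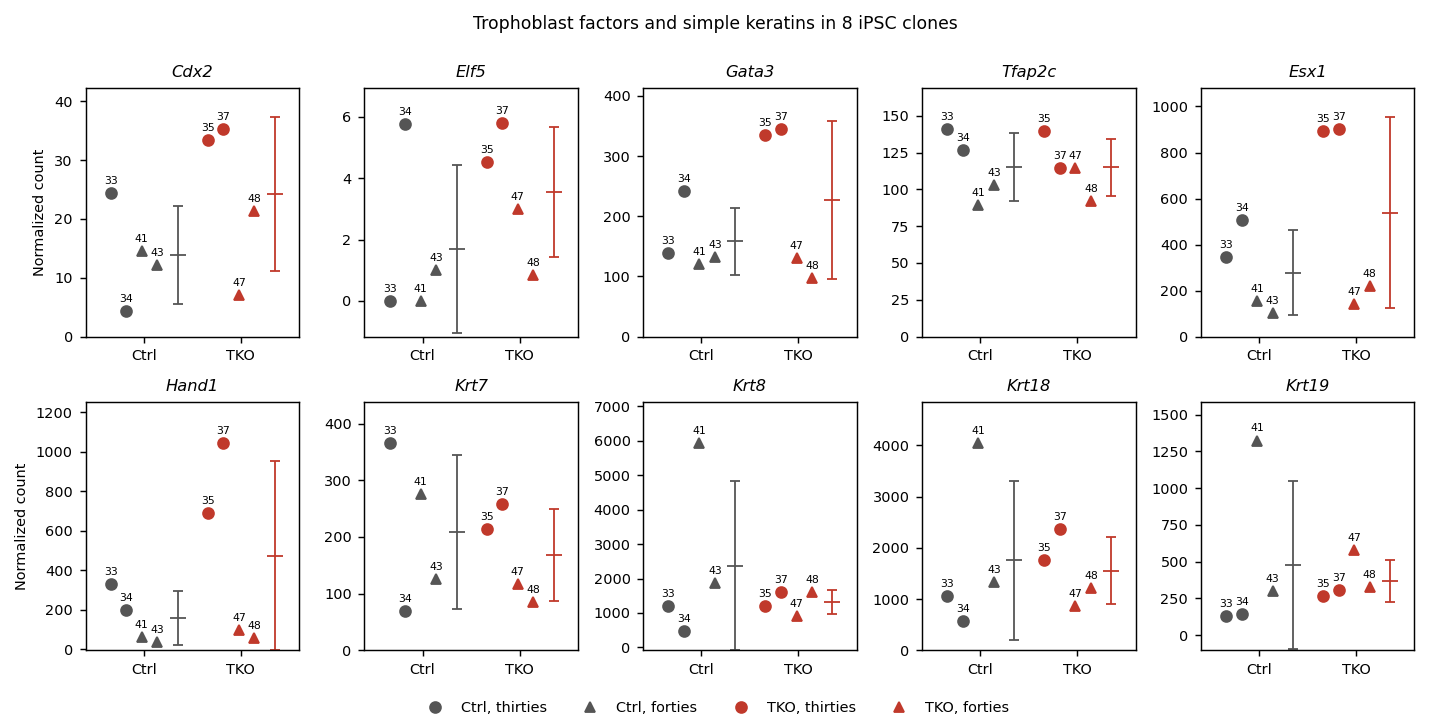
Normalized counts (vertical axes, one scale per gene) of the 10 genes in each clone, with the clone number beside its point, circles for thirties and triangles for forties clones, grey for Ctrl and red for TKO, and the mean ± SD of 4 clones at the right of each genotype. Esx1 and Hand1 are high in TKO 35 and TKO 37, and Krt8, Krt18 and Krt19 are highest in Ctrl 41.

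*Hand1*, a basic helix-loop-helix factor, varied most. Its normalized counts were 330.5 in Ctrl 33, 202 in Ctrl 34, 62.3 in Ctrl 41, 39.7 in Ctrl 43, 691 in TKO 35, 1044 in TKO 37, 100.2 in TKO 47 and 58.1 in TKO 48. All 4 thirties clones lay above all 4 forties clones, and the 2 TKO clones of the thirties were above the rest. *Hand1* was lower in the forties series by edgeR's quasi-likelihood test with genotype in the model (log2 change -2.96 ± 0.32, SE, adjusted p = 0.000882). Its spread over the 8 clones, as the SD of log2(normalized count + 1), was larger than that of 99.7% of records.

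*Esx1*, a homeobox gene of the placenta, ran in parallel. It reached 347 and 507 normalized counts in Ctrl 33 and Ctrl 34, 153 and 103 in Ctrl 41 and Ctrl 43, 894 and 901 in TKO 35 and TKO 37, and 141 and 219 in TKO 47 and TKO 48. Again the series did not overlap, and TKO 35 and TKO 37 were nearly equal at the top. The change between the series was -2.04 ± 0.22 (log2, SE, adjusted p = 0.000871 by edgeR's quasi-likelihood test). Over the 8 clones, Pearson's r of the log2 values of *Esx1* and *Hand1* was 0.935, a description over clones that share their series.

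*Gata3*, a zinc finger factor, followed with smaller differences. It had 138 normalized counts in Ctrl 33, 242 in Ctrl 34, 120.5 in Ctrl 41, 132 in Ctrl 43, 336 in TKO 35, 345 in TKO 37, 131 in TKO 47 and 97.5 in TKO 48. The thirties clones were all higher, although Ctrl 33 exceeded Ctrl 43 by little. Its log2 change was -1.11 ± 0.25 (SE, adjusted p = 0.0142 by edgeR's quasi-likelihood test), and the call was narrowly lost without TKO 35, TKO 37 or TKO 47 (adjusted p = 0.0505, 0.0507 and 0.0511).

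*Tfap2c*, an AP-2 family factor, was the steadiest gene of the group. It ran from 89.3 normalized counts in Ctrl 41 to 141 in Ctrl 33, and 40.1% of the same 13007 records had a smaller spread. Its forties clones lay at 89.3, 103, 114.2 and 92.3 and its thirties clones at 141, 127, 139.8 and 114.4, so they just did not overlap, yet the fitted change of -0.38 ± 0.16 (log2, SE) did not pass (adjusted p = 0.128 by edgeR's quasi-likelihood test). *Cdx2* was low in every clone, from 4.32 normalized counts in Ctrl 34, or 3 reads, to 35.2 in TKO 37, or 73 reads. Its series overlapped (-0.74 ± 0.48, log2, SE).

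In all, 3 of the 9 measured genes were lower in the forties series (*Gata3*, *Esx1* and *Hand1*) and 0 higher, where 19.4% of all records were called, 9.56% as lower and 9.84% as higher. *Gata3*, *Tfap2c*, *Esx1* and *Hand1* were lower in all forties than in all thirties clones, as were 7.72% of records (16.1% did not overlap in either direction). Any such separation of 4 against 4 clones gives an exact two-sided permutation p of 0.0286, the smallest possible. That p, which is unadjusted, therefore only restates the separation. The 6 factors summed to 981 to 2445 normalized counts in the thirties and 391 to 497 in the forties clones. Most of the thirties sums came from *Esx1* and *Hand1*, whereas *Cdx2* and *Elf5* overlapped between the series. In bulk RNA, fewer cells of a type and less RNA per cell cannot be told apart.

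Among 30 other trophoblast genes, 22 were measured, and 7 were lower and 1 higher in the forties series. Of all 16235 records, 9.56% were lower and 9.84% higher. The median log2 change was -0.44 over the 22 against -0.0046 over all records. *Mmp9*, a matrix protease of giant cells, changed by -2.02 ± 0.29 (log2, SE, adjusted p = 0.00249 by edgeR's quasi-likelihood test), and *Plet1*, a surface marker of early trophoblast, by -1.05 ± 0.17. *Sct*, which encodes secretin, changed by -1.46 ± 0.31, and *Id2*, an inhibitor of basic helix-loop-helix factors, rose by 0.75 ± 0.17. *Gata2*, *Gcm1*, *Dlx3* and *Syna* were the remaining lower genes. *Tpbpa*, *Prl3b1*, *Ctsq* and *Peg10* were at 0 in every library, the first 3 of which mark spongiotrophoblast and giant cells. Their records do not settle absence, because 13.2% of records of symbols with 1 record, and 28.4% of those with several, had no read at all. The summed level of the 30 genes did not separate the series, with 8191 to 12192 normalized counts in the thirties and 7987 to 11754 in the forties.

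Of the relatives and partners of the factors, 9 of 12 were measured. *Cdx1*, a paralog of *Cdx2*, was lower in the forties series (-1.96 ± 0.54, log2, SE), as was the GATA factor *Gata1* (-0.80 ± 0.20), and *Tcf12*, a partner of helix-loop-helix factors, was higher (0.54 ± 0.11). By likeness to the mean centred log2 profile of the 5 measured factors, the nearest of 12999 records were *Mroh7* (Pearson's r = 0.993 over 8 clones), *Eml2* (0.985), *Nectin2* (0.984) and *Scamp1* (0.982).

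**Figure D2:**
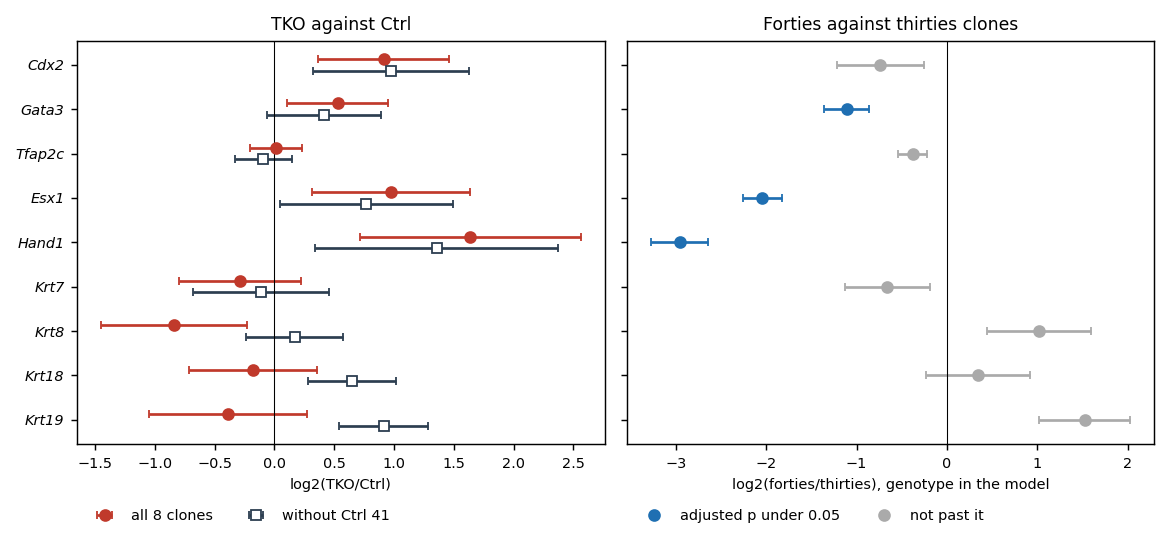
Fitted log2 changes with standard errors (horizontal axes) of the 9 measured genes, on the left TKO against Ctrl with all 8 clones (red) and without Ctrl 41 (open squares), on the right forties against thirties clones with genotype in the model (blue where the adjusted p is below 0.05). Without Ctrl 41 the points of Krt8, Krt18 and Krt19 move across 0, as does that of Tfap2c, which is near 0 in both fits (0.014 and -0.093). Esx1 and Hand1 stand farthest left on the right side.

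The keratins showed a different pattern, in which 1 clone stood apart. *Krt8* had 1211 normalized counts in Ctrl 33, 465 in Ctrl 34, 5949 in Ctrl 41, 1869 in Ctrl 43, 1192 in TKO 35, 1611 in TKO 37, 899 in TKO 47 and 1615 in TKO 48. Ctrl 41 was 3.18 times the next clone and 4.91 times the median of the other 7, and Ctrl 34 was lowest. Its Ctrl mean was therefore 2373 ± 2452 (SD, n = 4), beside 1329 ± 349 (SD, n = 4) in TKO.

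*Krt18*, the type I partner, had 1054 normalized counts in Ctrl 33, 575 in Ctrl 34, 4045 in Ctrl 41, 1342 in Ctrl 43, 1767 in TKO 35, 2359.6 in TKO 37, 871 in TKO 47 and 1208 in TKO 48. The highest and the lowest clone were again Ctrl 41 and Ctrl 34, but Ctrl 41 was only 1.71 times the next clone, TKO 37. Per kilobase, the level of *Krt8* was 0.523 to 1.14 times that of *Krt18*, lowest in TKO 35 (0.523) and TKO 37 (0.529) and highest in Ctrl 41 (1.14). Their log2 values had a Pearson's r of 0.901 over the 8 clones.

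*Krt19*, a type I keratin without the usual tail domain, had 133 and 145 normalized counts in Ctrl 33 and Ctrl 34, 1324 and 302 in Ctrl 41 and Ctrl 43, 266 and 307 in TKO 35 and TKO 37, and 577 and 324 in TKO 47 and TKO 48. Ctrl 41 was 2.29 times the next clone, TKO 47. All forties clones but Ctrl 43 lay above all thirties clones, and the series difference of 1.53 ± 0.50 (log2, SE) did not pass edgeR's quasi-likelihood test with 8 clones (adjusted p = 0.0593) and passed without Ctrl 41 (0.83 ± 0.22, adjusted p = 0.0398) or without TKO 48 (1.90 ± 0.50, adjusted p = 0.0365). *Krt7*, a type II keratin, was also raised in Ctrl 41, with 275 normalized counts, 2.18 times the median of the other clones. It was not highest there, because Ctrl 33 had 366, from 135 reads. Its lowest clone was Ctrl 34 (69.1), and the TKO clones lay between 84.6 and 259.

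Ctrl 41 was the highest clone for 9.96% of the 13007 records whose mean reached 20 normalized counts, and both highest and at least 2 times the next clone for 26 of them (0.2%). *Krt8* and *Krt19* were among these 26, at rank 8 and 18 by that ratio. The others were a mixed set that held *Clic6*, *Cyp26a1*, *Irs4*, *Amot*, *Fgf5* and *Wnt3*. They also included *Cer1* and *Dkk1*, secreted inhibitors from anterior endoderm, and *Sox17*, *Foxa2* and *Gata6*, transcription factors of endoderm. *Cer1* had 532 normalized counts in Ctrl 41 and 2.41 to 119 elsewhere, and *Lhx1*, a LIM homeobox gene of the same territory, 535 in Ctrl 41 and 0 to 188 elsewhere. Ctrl 34 stood apart in the same way for 42 records and Ctrl 33 for 16. Of 14 extraembryonic endoderm genes 12 were measured, of which 5 were highest in Ctrl 41. The sum of the 14 there was 15233, within the 9622 to 17710 of the other clones. Of 12 primitive streak and mesoderm genes 9 were measured, of which 3 were highest in Ctrl 41. The sum of the 12 there, 491, was above the 174 to 453 elsewhere. In the forties series 5 of the 12 measured endoderm genes were higher and 0 lower, where 9.84% of all records were higher and 9.56% lower. Among the 5 were *Foxa2* (3.42 ± 0.48, log2, SE), *Sox17* (1.85 ± 0.48) and the laminin genes *Lama1* (1.00 ± 0.12) and *Lamb1* (0.89 ± 0.15). Of 9 streak genes 4 were higher, among them *T* (3.25 ± 0.27), the brachyury gene, *Mixl1* (2.76 ± 0.37) and *Kdr* (0.96 ± 0.19), and 1 was lower (*Cdx1*). The part of these cell types in the keratin levels was not tested.

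Without Ctrl 41 the fitted TKO difference became 0.17 ± 0.40 (log2, SE) for *Krt8*, 0.65 ± 0.37 for *Krt18* and 0.91 ± 0.37 for *Krt19*, none past edgeR's quasi-likelihood test (adjusted p = 0.91, 0.585 and 0.48). Leaving out another clone kept *Krt8* and *Krt19* below 0, whereas *Krt18* also turned without TKO 47 (0.017 ± 0.57). The profile of the 4 keratins was most like that of *Car4* (Pearson's r = 0.98 over 8 clones), *Marveld2* (0.941), *Pkdcc* (0.911) and *Pphln1* (0.91). *Car4* and *Pkdcc* are among the 26 records above. That profile peaks in Ctrl 41 (1.59, with -1.32 to 0.38 elsewhere), the clone by which the 26 were chosen, so such overlap is built in.

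Other epithelial genes were read beside the keratins. Over all records, 9.84% were called higher and 9.56% lower in the forties series. Of 11 other keratins 6 were measured, and *Krt42*, a type I keratin, was higher (0.86 ± 0.26, log2, SE) and *Krt20*, of gut epithelium, lower (-1.59 ± 0.38) in the forties series. The sum of the 11 reached 3117 normalized counts in Ctrl 41 and 3019 in Ctrl 43, with 1028 to 2487 elsewhere. Most of it was *Krt42* (2652 in Ctrl 41 and 2632 in Ctrl 43), the only 1 of the 6 that was highest in Ctrl 41. Of 20 junction genes 19 were measured, and *Cdh1* (0.57 ± 0.12), which encodes E-cadherin, *Dsp* (0.87 ± 0.25), the desmosomal linker of keratin filaments, and *Grhl2* (0.95 ± 0.10), a factor that controls epithelial genes, were higher in the forties. Ctrl 41 was the highest clone for 8 of the 19 measured, and for 9.96% of the 13007 records with a mean of at least 20. The summed level of the 20 was 48471 in Ctrl 41, 46090 in Ctrl 43 and 28222 to 41859 elsewhere. *Cdh1* alone had 16235 in Ctrl 41 and 17177 in Ctrl 43. Of 8 stratified epithelium genes 5 were measured, *Perp* (1.12 ± 0.14) and *Sfn* (0.65 ± 0.18) were higher and *Col17a1* (-1.04 ± 0.22) lower in the forties, and *Trp63*, their defining factor, was at 0.

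**Figure D3:**
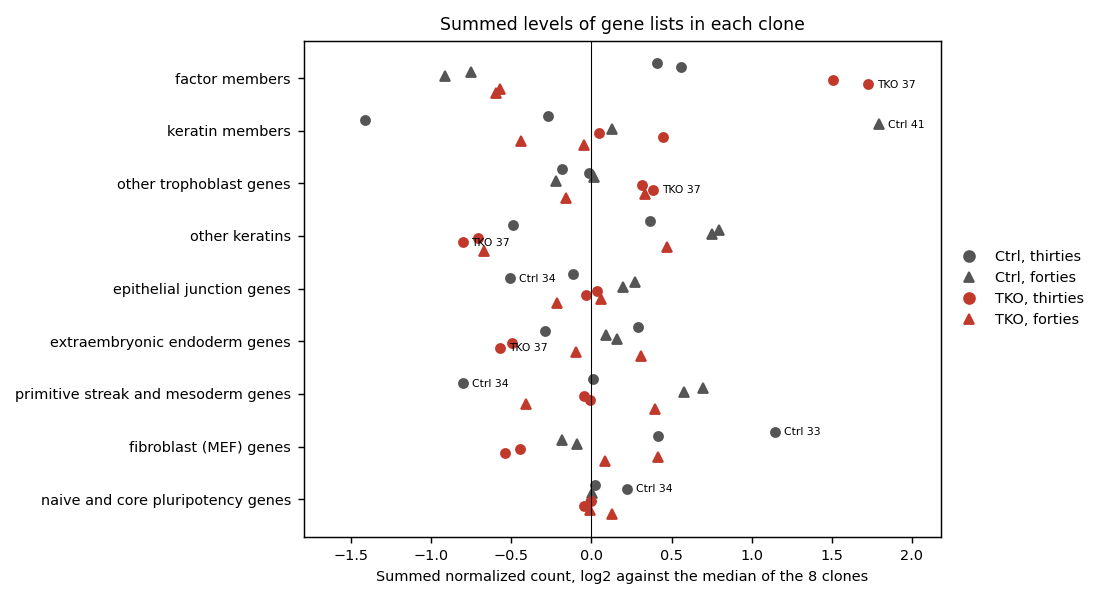
Summed normalized counts of each gene list in each clone, as log2 against the median of the 8 clones (horizontal axis), with circles for thirties and triangles for forties clones, grey for Ctrl and red for TKO, and the farthest clone named. Ctrl 41 lies farthest out for the 4 keratins, TKO 37 for the 6 factors and Ctrl 33 for the fibroblast genes.

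Because the series differ, the genotypes were compared with the series in the model and within each series. With the series in the model, 1 of 9 genes was called, where 5.7% of records were, and 2.6% as higher. *Hand1* was higher in TKO by 1.24 ± 0.31 (log2, SE, adjusted p = 0.0476 by edgeR's quasi-likelihood test), and *Esx1* fell just short (0.80 ± 0.21, adjusted p = 0.0545). The *Hand1* call was lost when any 1 of Ctrl 33, Ctrl 34, Ctrl 43, TKO 35, TKO 37 or TKO 47 was left out, with adjusted p values of 0.0808 to 0.142.

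Within the thirties series, TKO 35 and TKO 37 against Ctrl 33 and Ctrl 34, 2 of 9 genes were higher and 0 lower, where 11.9% of records were called and 4.83% as higher. These were *Hand1* (1.73 ± 0.33, log2, SE, adjusted p = 0.0148 by edgeR's quasi-likelihood test) and *Esx1* (1.06 ± 0.26, adjusted p = 0.0317). *Gata3* (0.81 ± 0.26, adjusted p = 0.0719) and *Krt18* (1.36 ± 0.47, adjusted p = 0.0865) did not pass. Both calls were lost when either TKO clone was left out, and that of *Esx1* also without Ctrl 33. These TKO libraries were also the deepest, and fibroblast genes moved with this contrast: 9 of 14 were lower in TKO, where 7.05% of all records were, and 0 higher. The 14 summed to 87087 normalized counts in Ctrl 33, 52531 in Ctrl 34, 28869 in TKO 35 and 27157 in TKO 37. Of the 11 measured pluripotency genes, *Pou5f1* was lower (-0.79 ± 0.09, log2, SE, adjusted p = 0.00267 by edgeR's quasi-likelihood test). *Tfcp2l1* was higher (0.49 ± 0.12, adjusted p = 0.0276). Between the series, 3 fibroblast genes were higher in the forties, *Col6a1* (1.26 ± 0.26, log2, SE), *Prrx1* (1.38 ± 0.34) and *Twist1* (0.73 ± 0.22), and *Fap* was lower (-1.38 ± 0.38). Of all records, 9.84% were higher and 9.56% lower in the forties. The part of depth and of these genes in the *Hand1* and *Esx1* values was not tested.

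Within the forties series, 0 of 9 genes were called by edgeR's quasi-likelihood test, where 1.98% of records were, and 2 genes had an unadjusted p below 0.05, as did 19.8% of all records. DESeq2 and limma-voom also called 0. The values were 0.62 ± 0.39 (log2, SE) for *Hand1*, 0.50 ± 0.28 for *Esx1*, -1.63 ± 0.55 for *Krt8* and -1.37 ± 0.45 for *Krt18*. Without Ctrl 41 the keratin values became -0.57 ± 0.51 and -0.37 ± 0.35. The 2 series were compared directly by the interaction of genotype and series, which also called 0 of 9 genes, where 1.3% of records were called, with 4 genes at an unadjusted p below 0.05, as were 18.7% of all records. DESeq2 called 1 (*Krt18*) and limma-voom 0. The largest interactions were those of *Krt18* (-2.74 ± 0.65, log2, SE, adjusted p = 0.0746 by edgeR's quasi-likelihood test) and *Krt8* (-2.41 ± 0.78, adjusted p = 0.147), and without Ctrl 41 these became -1.73 ± 0.45 and -1.34 ± 0.66. For *Hand1* and *Esx1* the interaction was -1.11 ± 0.51 and -0.56 ± 0.38, so their genotype change was not shown to differ between the series.

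**Figure D4:**
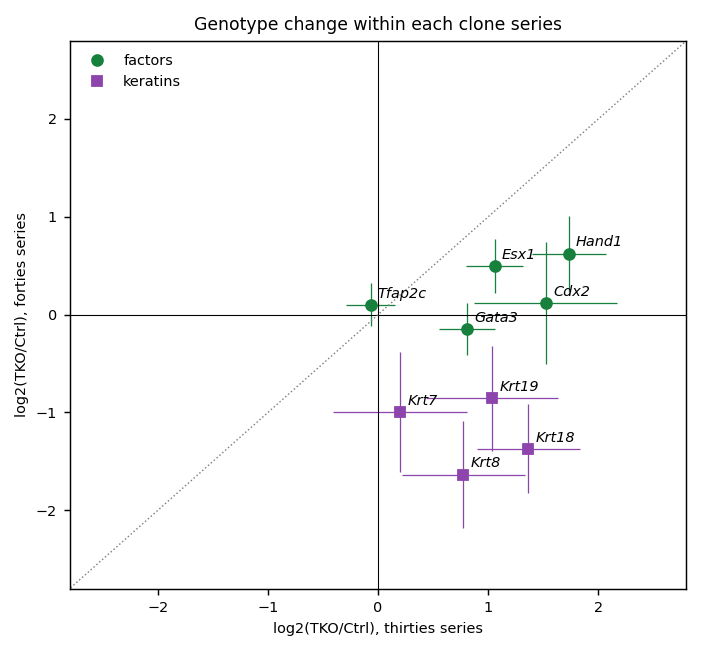
Fitted log2 change of TKO against Ctrl with standard errors within the thirties series (horizontal axis) and within the forties series (vertical axis), circles for factors and squares for keratins, with the dotted line where both are equal. Hand1 and Esx1 lie right of 0, and the 4 keratins lie right of 0 and below it.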

How the data were processed

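RNA was isolated from each clone, made into TruSeq RNA libraries and sequenced single-end on a HiSeq 2000. The authors mapped reads with BWA (0.7.5a per the submitters' processing notes) to mm9 transcripts and deposited whole-number read counts per RefSeq record, not scaled. The rule for reads that match several records, and strand, are not given in the sources used here, so counts of near-identical copies are uncertain. Symbols came from a RefSeq table of GRCm38.p6 (26321 of 27052 records named) and gene coordinates from an mm9 annotation.

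The 16235 records that reached 5 reads in 4 or more libraries were scaled by median-ratio size factors and tested with edgeR 4.0.16 (R 4.3.3, quasi-likelihood, Benjamini-Hochberg over all records, adjusted p below 0.05). Genotype was fitted alone, with the series, and as 4 groups of genotype and series. Standard errors were taken from the log2 change and the F value. Single genes were compared by exact two-sided permutation over 70 arrangements of clones. Settings tried beside these were DESeq2 1.42.0, limma-voom (limma 3.58.1), TMM scaling, a minimum of 10 reads in each library, the table without a filter, counts summed per symbol and leaving out each clone. Methods were tested on simulated data. Nothing says that clones came from separate embryos, so p values measure the spread between clones.

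The members and lists were chosen with earlier results of these data known. From each list, up to 4 called genes with the lowest adjusted p were named with values, or else the 2 most expressed. Genes named for standing apart in Ctrl 41, and remaining called genes given without values, were chosen after their values were seen. Profile likeness used records with a mean of at least 20. The most alike libraries, TKO 35 and TKO 37 (Pearson's r = 0.9984), still differed beyond sampling noise (chi-square per degree of freedom 9.92). That sets them apart from 1 library sequenced again, but it cannot show that the clones arose independently. Each clone was counted as 1 sample.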

Additional observations from a re-analysis of the deposited data

Results flagged for a closer look

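Among the 20 groups of 4 clones (10 genes in each genotype), 2 held a clone far from the other 3 by Dixon's test. For independent, normally distributed groups the test flags about 1 in 20. These groups share clones, some genes vary together, and the genes were chosen with earlier results known, so that rate does not apply here. *Krt19* in Ctrl was highest in Ctrl 41, at 1324 normalized counts, with the other Ctrl clones at 133 to 302. *Gata3* in Ctrl was highest in Ctrl 34, at 242 normalized counts, with the other Ctrl clones at 120.5 to 138.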

How the results depend on the processing

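No paired analysis was possible because Ctrl and TKO clones share no number. Without a filter on low counts, the calls among the 9 genes went from 1 to 2 for genotype with the series in the model, from 2 to 4 within the thirties, and from 0 to 2 both within the forties (*Krt8* and *Krt18*) and for the interaction (the same 2 genes). DESeq2 and limma-voom each gave 2 calls with the series in the model (*Esx1* and *Hand1*), and DESeq2 gave 1 for the interaction. With 1 clone left out, the counts ran from 0 to 1 with the series in the model, 2 to 5 for forties against thirties (5 without Ctrl 34), 0 to 4 within the thirties (0 without TKO 35 or TKO 37, 4 without Ctrl 33) and 0 to 3 for the interaction (3 without Ctrl 33), and stayed at 0 for the other comparisons.

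Directions that turned belonged to values that had not been called. With counts summed per symbol, *Tfap2c* in TKO against Ctrl became -0.020 (log2) and -0.017 with the series in the model. With limma-voom, *Krt18* became 0.073 and, with the series, 0.037, *Krt19* became 0.035, and *Cdx2* within the forties -0.075. With 1 clone left out, TKO against Ctrl ran from -0.47 to 0.65 for *Krt18*, from -0.69 to 0.91 for *Krt19*, from -0.58 to 0.10 for *Krt7*, from -1.18 to 0.17 for *Krt8* and from -0.093 to 0.12 for *Tfap2c*. With the series in the model it ran from -0.57 to 0.61 for *Krt18*, from -0.26 to 0.84 for *Krt19*, from -0.98 to 0.19 for *Krt8* and from -0.064 to 0.089 for *Tfap2c*. Forties against thirties ran from -0.28 to 0.83 for *Krt18*. Within the thirties TKO against Ctrl ran from -0.63 to 1.77 for *Krt7* and from -0.22 to 0.068 for *Tfap2c*, and within the forties from -0.92 to 0.67 for *Cdx2*, from -0.37 to 0.052 for *Gata3*, from -1.56 to 0.58 for *Krt19* and from -0.057 to 0.25 for *Tfap2c*. Of 432 values with a clone left out 31 turned, and of 318 under the other alternatives 6 did. The cause of these changes was not tested. In Ctrl 33, the shallowest library, *Cdx2* rested on 9 reads, and *Elf5* was too low for a test in any comparison.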
